A study of Homo sapiens with 2 samples.

Results

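The genes described here are 10 core components of the transforming growth factor beta (TGF-beta) pathway, chosen by name from 58735 genes in the deposited tables: the ligands TGFB1 and TGFB2, the latency protein LTBP1, the receptors TGFBR1, TGFBR2 and TGFBR3, and the signal transducers SMAD2, SMAD3, SMAD4 and SMAD7. All 10 symbols matched 1 Ensembl identifier each in GENCODE release 44, and all 10 had at least 1 count in both libraries. The RNA came from MCF10a-Snail-ER cells, a derivative of the non-tumorigenic human breast epithelial line MCF10a with stable expression of Snail, a repressor of epithelial genes, as a fusion to the estrogen receptor. Both libraries share the same treatment, 100 nM tamoxifen for 1 day, given to start an epithelial-to-mesenchymal transition, so the data hold no untreated cells and no parental cells, and no effect of Snail or of tamoxifen can be measured in them. One library was prepared with the SQK RNA01 direct RNA kit and read on a MinION (called Nanopore below), and the other with a stranded TruSeq mRNA kit (called Illumina below). The submitters state that the polyadenylated RNA of the pair was matched, and with 1 library on each platform there is no replicate check: every test below compares these 2 libraries and not the 2 methods in general.

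TGF-beta ligands are secreted in a latent form, bound to their own propeptide and to a latent TGF-beta binding protein such as LTBP1, and become active after release from that complex. The active dimer binds the type II receptor TGFBR2, helped by the coreceptor TGFBR3 (betaglycan), and TGFBR2 then phosphorylates the type I receptor TGFBR1, which phosphorylates SMAD2 and SMAD3 on serines at the very end of each protein. These enter the nucleus with the common partner SMAD4 and regulate transcription, while SMAD7, itself a target, blocks the receptors. In mammary epithelial cells the pathway is known for arresting growth and for driving epithelial-to-mesenchymal transition.

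The SMAD ends are shown because they carry the sites that distinguish receptor-activated SMADs from the common and the inhibitory SMAD. Each line below holds the last 30 coding bases before the stop codon, 5′ to 3′ on the coding strand, from GENCODE release 44 transcripts on hg38, and the capitals in SMAD2 and SMAD3 mark the last 4 codons, which hold the serines that the type I receptor phosphorylates. SMAD4 and SMAD7 lack that tail and have no capitals. The positions are chr18:47841830-47841859 on the minus strand for SMAD2, chr15:67190504-67190533 on the plus strand for SMAD3, chr18:51078435-51078464 on the plus strand for SMAD4 and chr18:48921375-48921404 on the minus strand for SMAD7.
SMAD2: tccccttcagtgcgttgcTCAAGCATGTCA
SMAD3: tccccaagcatccgctgtTCCAGTGTGTCT
SMAD4: atgccgattgcagacccacaacctttagac
SMAD7: tgctggctagaggtcatcttcaacagccgg

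Related members can be told apart by short reads only where their sequences differ, so the coding sequences of all 10 were compared. The longest identical run between any 2 of them was 23 bases, in SMAD2 (1401 coding bases) and SMAD3 (1275 coding bases), and lies at chr18:47845454-47845476 in SMAD2 and chr15:67187373-67187395 in SMAD3.
SMAD2 and SMAD3 shared run: ctgaagatcttcaacaaccagga
The next longest runs were 17 bases, between SMAD2 and SMAD4 and between TGFB1 and TGFB2. Across whole transcripts, TGFB1, TGFB2, LTBP1, TGFBR1, TGFBR2, SMAD3 and SMAD7 shared no stretch of 50 bases with another member. Whether SMAD2, SMAD4 and TGFBR3 share such stretches with each other was not resolved, since theirs recur in many genes.

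Other genes share sequence with 8 of the 10 members. TGFBR1 and SMAD7 had no 50-base stretch in common with any other gene. TGFB1 had 3.57% of its 50-base stretches in common with another gene, all of them with HNRNPUL1, an RNA-binding protein gene on the opposite strand. SMAD4 had 4.37%, mostly with ENSG00000267699, a protein-coding read-through annotation on the same strand, and TGFB2 had 32.4%, with the lncRNAs TGFB2-OT1 and TGFB2-AS1. In the other 5 members the share was between 0.0292% and 2.05%, and the shared stretches of SMAD2, SMAD4 and TGFBR3 recur in 631, 209 and 187 other genes. How reads over such shared bases were counted is not given in the sources used here.

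The TGFB1 overlap is shown because TGFB1 is the member called higher by Nanopore, and HNRNPUL1 is the counted gene that shares exonic bases with it. A single TGFB1 transcript, TGFB1-203, annotated without a coding frame, extends far past the usual end of the gene, and its last exons lie over HNRNPUL1 exons. The overlap spans 215 bases in 2 stretches. The first stretch is at chr19:41301587-41301704 (hg38) and all of its 118 bases are coding in HNRNPUL1. It is given on the HNRNPUL1 strand (plus), with no capitals.
TGFB1-203 exon over HNRNPUL1: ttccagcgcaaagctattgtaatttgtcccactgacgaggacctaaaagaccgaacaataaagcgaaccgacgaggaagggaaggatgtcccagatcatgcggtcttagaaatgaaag
The second stretch is at chr19:41302624-41302720 and has 97 bases, 56 of them coding in HNRNPUL1. The canonical TGFB1 transcript, which encodes the growth factor, shares no exonic base with HNRNPUL1.

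**Figure D1:**
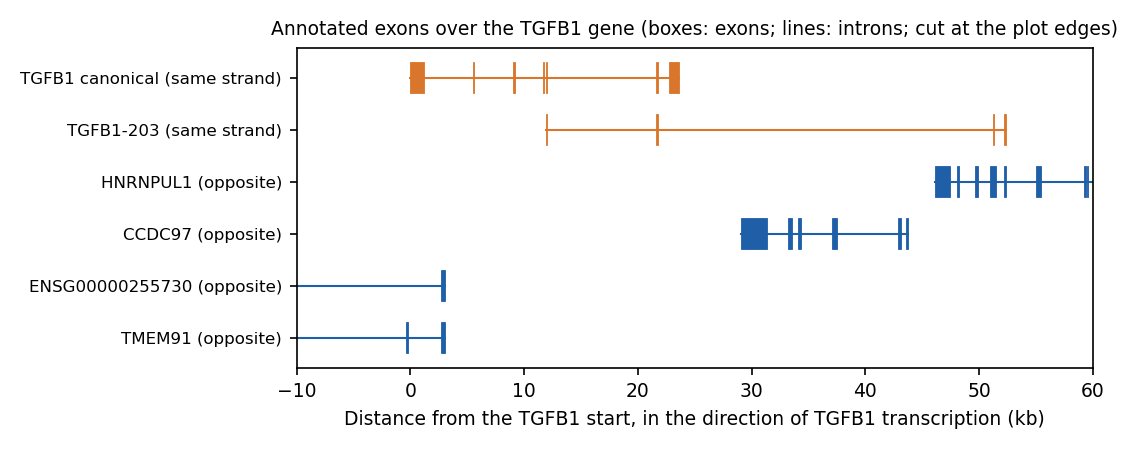
Exons of TGFB1 and of the genes annotated over it on the opposite strand; the horizontal axis is the distance from the TGFB1 start in kb, boxes are exons and lines are introns. Only the far exons of TGFB1-203 lie over HNRNPUL1 exons, 215 bases in all; CCDC97, ENSG00000255730 and TMEM91 share no exonic base with TGFB1.

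Depth set what could be read from each gene. The Nanopore library held 403235 counts, so 1 count was 2.48 counts per 1000000 (CPM) and 3 counts, the limit that a count of 0 allows, were 7.44 CPM. The Illumina library held 191741714 counts, and 3 counts were 0.0156 CPM. The cells carried the markers of their label: all 9 basal mammary genes examined had counts in both libraries, from 5 to 2415 Nanopore counts, and of the luminal genes KRT8 had 157 Nanopore counts, KRT18 113, EPCAM 3 and KRT19 1. Of the 5 fibroblast markers, COL1A1, COL3A1, PDGFRA and PDGFRB had 0 Nanopore counts and COL1A2 had 1, with 27 to 946 Illumina counts. Endothelial PECAM1, VWF and CDH5 had 0 Nanopore counts and 973, 6 and 11 by Illumina. Of the leukocyte markers, PTPRC and CD3E had 0 Nanopore counts and 2 and 0 by Illumina. CD14 had 5 Nanopore and 2100 Illumina counts, more by Illumina than any fibroblast or endothelial marker examined. In bulk RNA, fewer cells of a type and less RNA per cell cannot be told apart. Intervals are 95% Wilson intervals for levels and exact binomial intervals for ratios, and they cover counting error only. With 1 library on each platform they hold no spread between libraries. Nor do they allow for PCR copies of 1 molecule, which can be read more than once.

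Of the members, 9 reached a mean of 5 CPM over the libraries and were tested among 12414 genes with an exact binomial test of the counts given the library totals, with Benjamini-Hochberg adjustment over all of them. TGFB1, 1 of the 9, was called higher by Nanopore at an adjusted p under 0.05, where 20.2% of all tested genes were. LTBP1, TGFBR1, TGFBR2, SMAD2 and SMAD3, 5 in all, were called higher by Illumina, where 27.2% of all tested genes were. TGFBR3, SMAD4 and SMAD7 were not called, and TGFB2 was too rare to test. With a difference of at least 2-fold also required, 1 member was higher by Nanopore, against 17.7% of tested genes, and 4 were higher by Illumina, against 21.7%. The median log2 ratio of Nanopore over Illumina CPM, each plus 1, was -0.85 over the 9 members and -0.42 over all tested genes, whose quartiles were -1.18 and 0.54. Tested protein-coding genes had a median of -0.58.

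**Figure D2:**
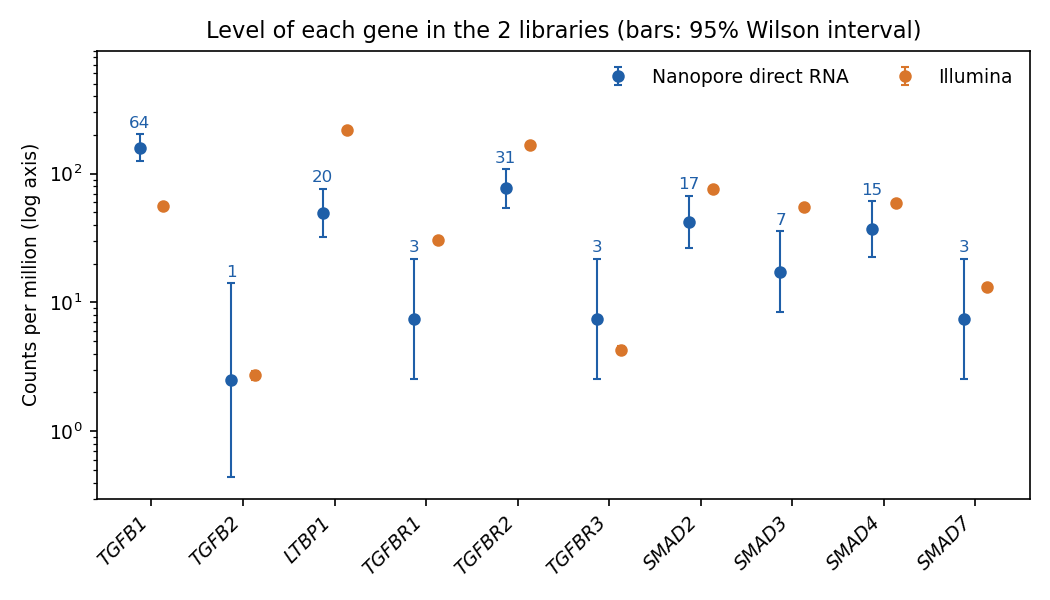
Level of each gene in CPM (log axis) in the Nanopore library (blue, with its count above the bar) and the Illumina library (orange); bars are 95% Wilson intervals. TGFB1 is the only gene whose Nanopore interval lies wholly above the Illumina level; LTBP1, TGFBR1, TGFBR2, SMAD2 and SMAD3 lie wholly below it.

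TGFB1 (ENSG00000105329, chr19:41301587-41353922, minus strand), the main TGF-beta ligand of epithelial cells, had 64 Nanopore counts, or 158.7 CPM (124.3 to 202.7), and 10839 Illumina counts, or 56.5 CPM. The Nanopore level was 2.81-fold higher (2.16 to 3.59), with a log2 ratio of 1.47 and an adjusted p of 2.22e-11 by the exact binomial test. It had the most Nanopore counts of the 10 genes, whereas LTBP1, TGFBR2, SMAD2 and SMAD4 had more Illumina counts than it.

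HNRNPUL1 itself had 42 counts by Nanopore and 60092 by Illumina, or 104.2 against 313.4 CPM, and its log2 ratio was -1.58. At the Illumina share of TGFB1, 22.8 Nanopore counts would have been drawn at this depth. If all 42 Nanopore counts of HNRNPUL1 were also among the 64 of TGFB1, 22 would remain, or 54.6 CPM. With the Illumina counts left as deposited, the remaining level was 0.965 times the Illumina level (0.605 to 1.46), and the adjusted p was then 1 by the exact binomial test. Subtracting the whole of HNRNPUL1 gives the lowest value that double counting with that gene could leave. If reads over both genes were instead counted for neither, the deposited counts of TGFB1 would lack them, and that case was not worked out. Whether reads were in fact counted under both genes was not tested, since the tables hold only sums per gene.

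The other genes annotated over TGFB1 share none of its exonic bases. Of these, 3 had counts, all on the opposite strand; the lncRNA ENSG00000286177, on the same strand, was not analysed here. TMEM91 had 21 counts by Nanopore and 348 by Illumina, and its log2 ratio was 4.24. ENSG00000255730, a read-through annotation that covers TMEM91, had 49 and 4366, with a log2 ratio of 2.37. CCDC97 had 2 and 4496, with a log2 ratio of -2.04. With HNRNPUL1, the 4 counted neighbours did not share a direction: HNRNPUL1 and CCDC97 were higher by Illumina, ENSG00000255730 and TMEM91 by Nanopore.

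TGFB2 (ENSG00000092969, chr1:218345336-218444619, plus strand), a second ligand with the same receptors that depends more on TGFBR3 for binding, had 1 Nanopore count, or 2.48 CPM (0.438 to 14.0), and 520 Illumina counts, or 2.71 CPM. The Illumina share predicts 1.09 Nanopore counts, and the CPM ratio of 0.914 had an interval from 0.0231 to 5.12. A difference within that range was not detectable at this depth. TGFB2-OT1, which lies inside the last exon on the same strand and covers 1371 of its exonic bases, had 0 Nanopore counts and 202 Illumina counts. TGFB1 exceeded TGFB2 in both libraries. The ratio of their Illumina levels was 38.6 by union exonic length, 55.1 by mean transcript length and 44.0 by the length of the canonical transcript, and the ratio of Nanopore counts was 64 (11.1 to 2567).

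LTBP1 (ENSG00000049323, chr2:32946953-33399509, plus strand), which holds latent TGF-beta in the matrix, had 20 Nanopore counts, or 49.6 CPM (32.1 to 76.6), and 41696 Illumina counts, or 217.5 CPM. Illumina was higher by 4.38-fold (2.84 to 7.18), with a log2 ratio of -2.11 and an adjusted p of 7.92e-17 by the exact binomial test. It had the lowest ratio of the 10 members. The opposite-strand lncRNA ENSG00000285577, which shares 249 exonic bases with LTBP1, had 6 Nanopore and 1590 Illumina counts. Without those 6, and with the Illumina counts left as deposited, LTBP1 would stand 6.26-fold lower by Nanopore (3.73 to 11.5). The order of ligand and latency protein differed between the libraries in the counts as deposited. Nanopore counted 0.3125 LTBP1 reads for each TGFB1 read (0.179 to 0.523), and Illumina counted 3.85 (3.77 to 3.93), or 1.71 per base of union exonic length, 1.77 per base of mean transcript and 1.64 per base of canonical transcript. With the counts of HNRNPUL1 and ENSG00000285577 subtracted, 22 Nanopore counts of TGFB1 and 14 of LTBP1 would remain. No interval was computed for the ratio of those remaining counts, so the 2 genes were not ordered by them.

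TGFBR2 (ENSG00000163513, chr3:30606601-30694142, plus strand), the type II receptor that binds the ligand, was the best-counted receptor in both libraries. It had 31 Nanopore counts, or 76.9 CPM (54.2 to 109.1), and 31880 Illumina counts, or 166.3 CPM. Illumina was 2.16-fold higher (1.52 to 3.18), with a log2 ratio of -1.10 and an adjusted p of 7.19e-06 by the exact binomial test.

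TGFBR1 (ENSG00000106799, chr9:99104038-99154192, plus strand), the type I receptor kinase, had 3 Nanopore counts, or 7.44 CPM (2.53 to 21.9), where its Illumina share predicts 12.4. Its Illumina level was 30.7 CPM from 5890 counts, 4.13-fold higher (1.41 to 20.0), with a log2 ratio of -1.91 and an adjusted p of 0.00922 by the exact binomial test. The call rests on 3 Nanopore counts.

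TGFBR3 (ENSG00000069702, chr1:91680343-91906335, minus strand), the coreceptor, also had 3 Nanopore counts, or 7.44 CPM, where its Illumina share predicts 1.73. Its Illumina level was 4.29 CPM from 823 counts. It was thus 1 of 2 tested members with a ratio above 0, at 0.67 on the log2 scale, where 36.8% of all tested genes lay above 0. However, the interval of its CPM ratio ran from 0.357 to 5.08 and the adjusted p was 0.629 by the exact binomial test. TGFBR1 and TGFBR3 had equal Nanopore counts, and a ratio of 7.16 (6.65 to 7.71) in Illumina counts, so the Nanopore library could not order them. Both libraries placed TGFBR2 above the other receptors. TGFBR2 over TGFBR1 was 10.3 in Nanopore counts (3.22 to 52.8), and by Illumina 6.31 per union exonic base, 6.01 per mean transcript base and 7.76 per canonical base.

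SMAD2 (ENSG00000175387, chr18:47808957-47931146, minus strand), which carries the receptor signal into the nucleus, had 17 Nanopore counts, or 42.2 CPM (26.3 to 67.5), and 14683 Illumina counts, or 76.6 CPM. Illumina was 1.82-fold higher (1.13 to 3.12), with a log2 ratio of -0.85 and an adjusted p of 0.0229 by the exact binomial test. That call was lost when the libraries were scaled to each other differently: the adjusted p was 0.0503 with TMM scaling and 0.0688 with median ratio scaling.

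SMAD3 (ENSG00000166949, chr15:67063763-67195173, plus strand), the other receptor-activated SMAD of the pathway and the one that binds DNA directly in its main form, had 7 Nanopore counts, or 17.4 CPM (8.41 to 35.8), where 22.4 counts are predicted. Its Illumina level was 55.6 CPM from 10653 counts, 3.20-fold higher (1.55 to 7.96), with a log2 ratio of -1.62 and an adjusted p of 0.00104 by the exact binomial test. SMAD2 over SMAD3 was 2.43 in Nanopore counts, with an interval from 0.957 to 6.93 that includes equal levels. By Illumina, SMAD2 over SMAD3 was 1.38 in counts but 0.379, 0.667 and 0.257 per base of union, mean and canonical length, so which of the pair was the more abundant depended on whether counts were divided by length.

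SMAD4 (ENSG00000141646, chr18:51028528-51085045, plus strand), the common partner, had 15 Nanopore counts, or 37.2 CPM (22.5 to 61.4), and 11309 Illumina counts, or 59.0 CPM. Illumina was 1.59-fold higher with an interval from 0.961 to 2.83, and the log2 ratio of -0.65 was not called (adjusted p of 0.135 by the exact binomial test). The read-through gene ENSG00000267699 shares 967 exonic bases with SMAD4 on the same strand and had 9 Nanopore counts and 1244 Illumina counts. If those 9 were also counted under SMAD4, 6 would remain, with the Illumina counts left as deposited. That is 3.96-fold below the Illumina level (1.82 to 10.8), with an adjusted p of 0.000131 by the exact binomial test. Double counting there was not tested either. With all such subtractions made from Nanopore counts only, 0 members would be called higher by Nanopore and 6 higher by Illumina. Because Illumina counts were not reduced, such a subtraction can only lower a ratio. The case of shared reads counted for neither gene was not worked out for any member. It was made for the members only, so no share over all tested genes stands beside these counts.

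SMAD7 (ENSG00000101665, chr18:48919853-48950965, minus strand), the inhibitory SMAD, had 3 Nanopore counts, or 7.44 CPM, where 5.35 are predicted. Its Illumina level was 13.3 CPM from 2545 counts, 1.78-fold higher with an interval from 0.610 to 8.66, and the adjusted p was 0.564 by the exact binomial test. It is the only member whose body overlaps no annotated gene. On the CPM scale all 4 SMADs had ratios below 0, from -1.62 to -0.65, where 36.8% of all tested genes had ratios above 0. Of the 4, 2 were called higher by Illumina, where 27.2% of all tested genes were. After division by length SMAD2 and SMAD4 turned above 0 by all 3 lengths, SMAD3 by 2 and SMAD7 by 1. All tested genes turned likewise, with 61.8%, 51.8% and 64.7% above 0 by union, mean and canonical length.

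The members were also set beside genes of like length. A direct RNA read comes from 1 molecule whatever its length, whereas a fragmented library gives more fragments from a longer transcript. All tested genes with a length were split into 5 equal classes by union exonic length, and the medians of their log2 ratios, from class 1 (53 to 2236 bases) to class 5 (8628 bases or more), were 1.21, -0.23, -0.58, -0.77 and -0.91. No member fell in class 1. TGFB1 (3264 bases) and SMAD7 (3946 bases) were in class 2, LTBP1, TGFBR1, TGFBR2 and TGFBR3 in class 4, and SMAD2, SMAD3 and SMAD4 in class 5. TGFB1, at 1.47, lay above the upper quartile of its class, which was 0.59, and LTBP1 and TGFBR1 lay below the lower quartile of theirs, which was -1.44. SMAD3, at -1.62, lay below the lower quartile of class 5, -1.54. SMAD2, SMAD4, SMAD7 and TGFBR2 lay between the quartiles of their classes, and TGFBR3 lay above the upper quartile of its own, -0.12.

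**Figure D3:**
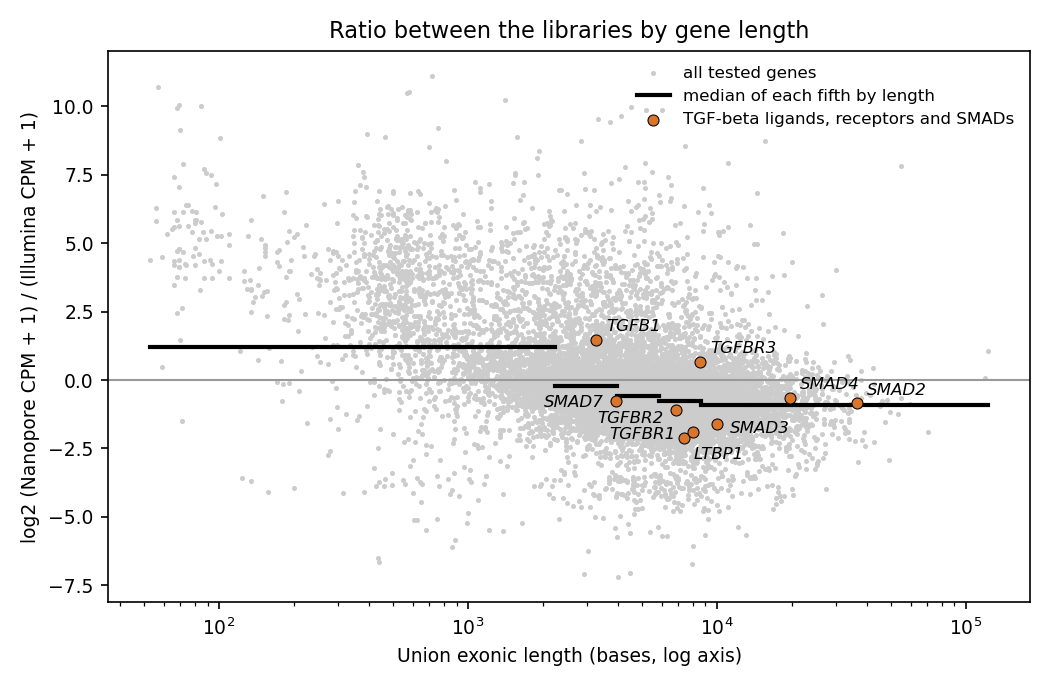
The log2 ratio of Nanopore over Illumina CPM (each plus 1) against union exonic length (log axis) for all tested genes (grey) and the 9 tested members (orange); black lines are medians of 5 equal classes by length. The medians go from 1.21 to -0.91; TGFB1, at 1.47, stands above the median of its class, and LTBP1, at -2.11, below.

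To take account of length, Illumina counts were divided by 3 choices of length and rescaled to transcripts per 1000000 (TPM). Nanopore CPM was compared with each. Medians by length class were computed on the CPM scale only, so whether a trend with length remained on the TPM scales was not tested. TGFB1 was higher by Nanopore on every scale, with log2 ratios of 1.74 by union exonic length, 1.49 by mean transcript length and 2.30 by canonical transcript length, and adjusted p of 8.19e-15, 1.50e-11 and 4.66e-23 by the exact binomial test. The 64 counts compare with 18.9, 22.6 and 12.7 predicted. This comparison still includes any read that was also counted under HNRNPUL1.

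SMAD2 and SMAD4 crossed to the other side. So did the median over all tested genes, from -0.42 to 0.40, 0.065 and 0.49 by union, mean and canonical length. SMAD2 went from -0.85 on the CPM scale to 2.69, 1.28 and 3.29 by union, mean and canonical length, and all 3 were called (adjusted p of 6.05e-09, 0.00454 and 3.23e-12 by the exact binomial test). SMAD2 is also the member whose lengths differ most: its union is 36426 bases and its canonical transcript 34626, while the second longest transcript has 12075 and the mean is 5468. SMAD4 went from -0.65 to 2.06, 1.10 and 1.74, also called on all 3 scales (adjusted p of 1.91e-05, 0.0232 and 0.000271 by the exact binomial test), with a union of 19606 bases and a mean transcript of 4221. Its 15 counts, against 3.29, 6.76 and 4.20 predicted, still include any read that was also counted under ENSG00000267699. Without the 9 counts of that gene, 6 would remain. Which transcripts these cells make, and hence which length applies, cannot be read from counts per gene.

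LTBP1 stayed below 0 on every scale, at -0.68, -0.98 and -0.062, but was called only by mean transcript length (adjusted p of 0.00264 by the exact binomial test). TGFBR2 moved to slightly above 0, at 0.22, 0.30 and 0.43, and was called on none of the 3. Beside the medians over all tested genes, 0.40, 0.065 and 0.49, it was lower by union and canonical length and higher by mean length. TGFBR1 lay at -0.44, -0.43 and 0.018, SMAD3 at 0.20, -0.51 and 0.36, and SMAD7 at -0.26, -0.69 and 0.24, with no call. TGFB2 and TGFBR3 were under the minimum mean level on the TPM scales and were not tested. For TGFBR3, 3 Nanopore counts were seen where 0.547, 0.734 and 0.423 were predicted. By union exonic length, 3 of 8 tested members were called higher by Nanopore, against 32.4% of all tested genes, and 0 higher by Illumina, against 12.8%. By mean transcript length they were 3 and 1, against 24.6% and 16.9%, and by canonical length 3 and 0, against 33.2% and 11.2%. The 3 were TGFB1, SMAD2 and SMAD4 on each scale.

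**Figure D4:**
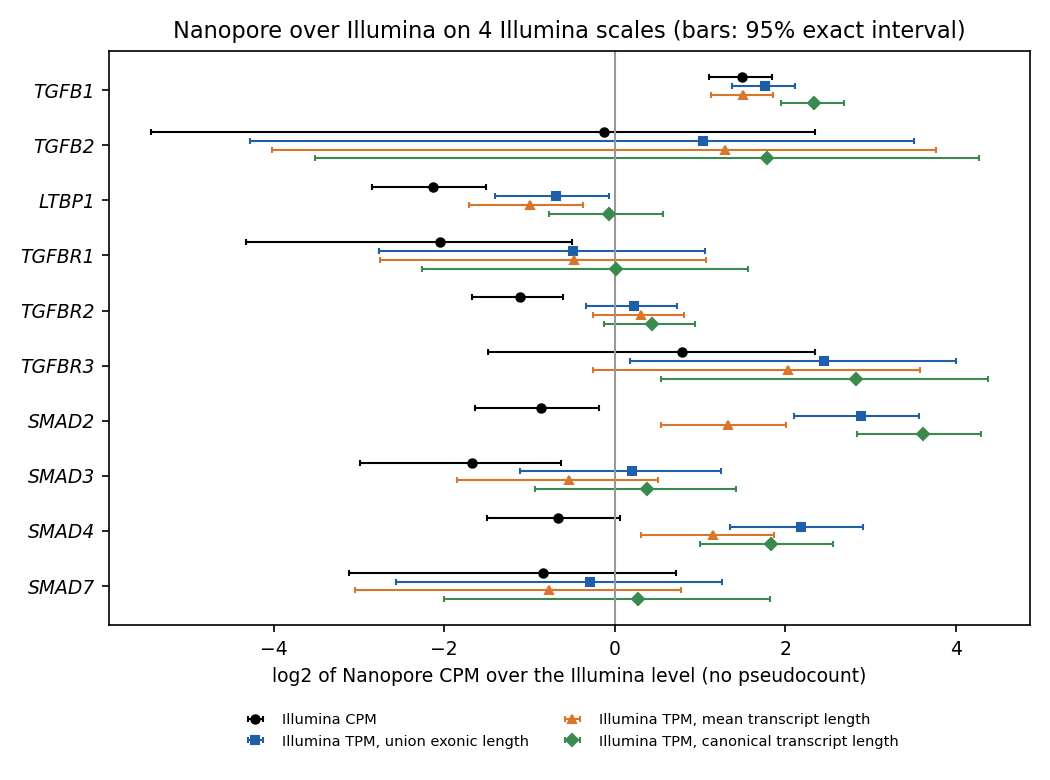
The log2 ratio of Nanopore CPM over the Illumina level, without a pseudocount, for each gene on 4 Illumina scales (CPM, and TPM by 3 lengths); bars are 95% exact intervals. TGFB1 lies above 0 on all 4, SMAD2 and SMAD4 move from below to above 0 once counts are divided by length, and the genes with 1 to 3 Nanopore counts have the widest bars.

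Per length, the Illumina library placed the same genes at the top and the bottom whichever length was used, while the middle changed order. LTBP1, TGFBR2 and TGFB1 were the 3 most abundant by each length, at 80.2, 65.7 and 46.9 TPM by union exonic length, with TGFBR2 ahead of LTBP1 only by canonical length (56.9 against 51.8). TGFB2 and TGFBR3 were the 2 least abundant by each length, at 1.21 and 1.36 TPM by union exonic length, where their intervals overlap. Between them, SMAD3 came next after TGFB1 by each length, at 15.0, 25.2 and 13.3 TPM, and TGFBR1, SMAD7, SMAD4 and SMAD2 changed order. SMAD2 was the lowest of these by union exonic length (5.69 TPM) and by canonical length (3.43 TPM). By mean transcript length it came next after SMAD3 (16.8 TPM) and overlapped SMAD4 in its interval.

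In the Nanopore library only TGFB1 stood clear of the next member by its interval. The order below it was TGFBR2, LTBP1, SMAD2, SMAD4, SMAD3, then TGFBR1, TGFBR3 and SMAD7 with equal counts, then TGFB2, and each of these overlapped the next. Without the counts of HNRNPUL1, TGFB1 would stand at 54.6 CPM, between TGFBR2 and LTBP1. Divided by any of the 3 lengths, Nanopore CPM as deposited still put TGFB1 first and TGFB2 last. Spearman's rho between the libraries over the 10 genes was 0.853 with Illumina CPM and 0.718, 0.902 and 0.804 with Illumina TPM by union, mean and canonical length. These are descriptions over genes that share the same libraries, and genes are not replicates.

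Around the core, 65 other pathway genes were examined by role, of which 50 were tested: 5 were called higher in the Nanopore library and 18 in the Illumina library, against 20.2% and 27.2% of all tested genes. Their median log2 ratio was -0.81, close to the -0.85 of the core. After division by length the counts turned, to 14 and 4 of 46 by union exonic length, 10 and 6 of 46 by mean transcript length, and 14 and 3 of 45 by canonical length. All tested genes turned likewise, to 32.4% and 12.8% by union exonic length, 24.6% and 16.9% by mean transcript length, and 33.2% and 11.2% by canonical length. Genes named in each role are those with the highest ratio, the lowest ratio and the highest Illumina TPM by union exonic length.

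Among other latency proteins and ligands, 5 of 10 tested were higher by Illumina and 0 by Nanopore, against 27.2% and 20.2% of all tested genes. Their median was -1.18. LTBP2, a relative of LTBP1, had 7 Nanopore and 11812 Illumina counts (-1.77, adjusted p of 0.000209 by the exact binomial test). THBS1, thrombospondin-1, which can activate latent TGF-beta, had 52 and 63050 counts (-1.34, adjusted p of 2.67e-14 by the same exact test). GDF15, a distant ligand of the family, had 4 and 667 counts and a ratio of 1.29 that was not called (adjusted p of 0.184 by the same exact test).

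The 7 tested of the other receptors had a median of -1.01. Of them, 1 was higher by Illumina and 0 by Nanopore, against 27.2% and 20.2% of all tested genes. That gene was ENG, endoglin, a coreceptor related to TGFBR3, with 14 and 13601 counts (-1.01, adjusted p of 0.0106 by the exact binomial test). ACVR1, a type I receptor, had 2 and 3628 counts (-1.74) and BMPR2, the type II receptor for bone morphogenetic proteins, had 15 and 6599 (0.11), and neither was called. Of the other SMADs, SMAD5, which serves bone morphogenetic protein receptors, had 17 and 16244 counts (-0.99, adjusted p of 0.00537 by the exact binomial test), and SMAD9 had 2 and 1425 counts (-0.50) and was not called. SMAD5 and SMAD2 thus had equal Nanopore counts.

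Of the modulators, 6 of 16 tested were higher by Illumina and 1 by Nanopore, against 27.2% and 20.2% of all tested genes. Their median was -1.09. WWP1, a ubiquitin ligase, was the one higher by Nanopore, with 29 and 6401 counts (1.08, adjusted p of 0.00112 by the exact binomial test). TGIF2, a corepressor of SMADs, had 1 and 4486 counts (-2.81, adjusted p of 0.00495 by the same exact test), and STRAP, a receptor-binding protein, had 76 and 43169 (-0.26) and was not called. Of the transcriptional targets of the pathway, 5 of 14 tested were higher by Illumina and 4 by Nanopore, against the same shares of all tested genes. Their median was -0.27. JUNB, an immediate response gene, had 90 Nanopore and 7572 Illumina counts, 223.2 against 39.5 CPM (2.47, adjusted p of 1.02e-35 by the exact binomial test), and stayed above 0 on the 3 TPM scales at 1.92, 3.06 and 2.70. TGFBI, a matrix protein named for its induction by TGF-beta, was the most abundant target by Illumina TPM (union exonic length) and had 161 and 185644 counts (-1.28, adjusted p of 6.17e-38 by the same exact test). FN1, fibronectin, had the lowest ratio of the targets at -2.25. Division by length did not treat these genes alike: ENG and TGIF2 stayed below 0 by all 3 lengths, WWP1 and JUNB stayed above 0, and LTBP2, THBS1, SMAD5, TGFBI and FN1 rose above 0 by at least 1 of them.

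**Figure D5:**
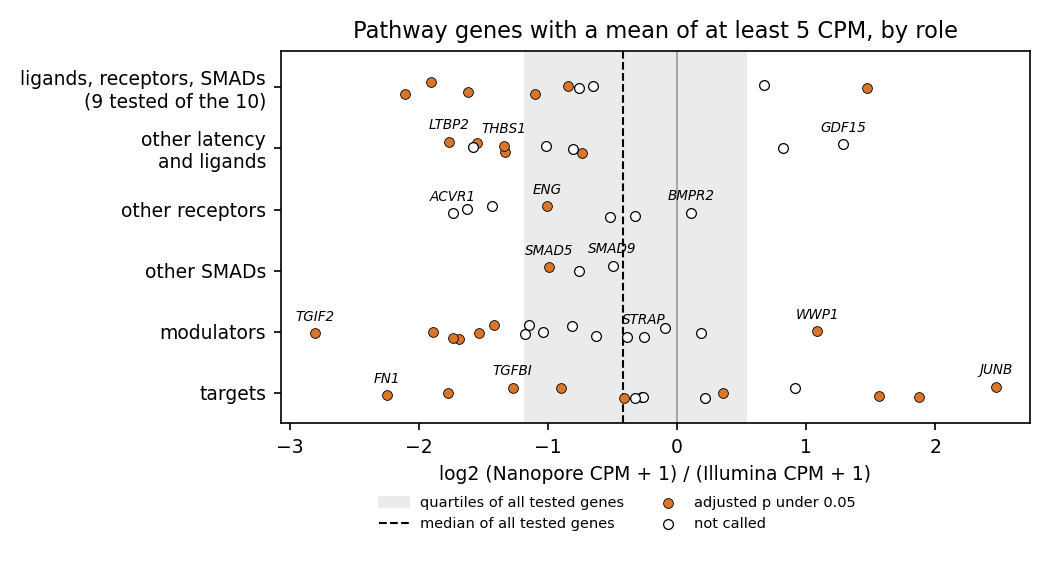
The log2 ratio of Nanopore over Illumina CPM (each plus 1) for the tested genes of the pathway by role; filled points have an adjusted p under 0.05, and the band and dashed line are the quartiles and median of all tested genes. Targets spread from -2.25 (FN1) to 2.47 (JUNB), and of the receptors and other SMADs only BMPR2 and TGFBR3 lie above 0.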

How the data were processed

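For 1 Nanopore direct RNA library and 1 Illumina library the authors deposited raw counts, whole numbers with no scaling, 1 per gene. The label of the Nanopore counts carries the tag talc, whose meaning the labels do not give. Whether those reads were altered before counting was not tested, and the tests treat the 2 libraries as independent draws. Minimap2 2.11-r797, HISAT2 2.1.0 and featureCounts and the build hg38 are named in the submitters' processing notes, with no role or order; the annotation, strand setting and treatment of reads over several genes are not given in the sources used here, and neither is whether Illumina values count reads or fragments. Of 58735 identifiers, 58207 matched GENCODE release 44, which gave symbols, positions and lengths; the other 528 stayed in totals and tests without a length.

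Counts were scaled to library totals (CPM), and log2 ratios used a pseudocount of 1 CPM, which understates differences of rare genes. No model with replicate spread could be fitted, so genes whose mean reached 5 CPM were compared by an exact two-sided binomial test (scipy 1.17.1), adjusted by Benjamini-Hochberg, and the script was tested on simulated data. TMM used edgeR 4.0.16. Named genes are the 10 members, overlapping genes with a Nanopore count or 1 CPM by Illumina, and the extremes of each role. The members, lists and tests were chosen with earlier results of these data known.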

Additional observations from a re-analysis of the deposited data

How the results depend on the processing

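The number of members called higher by Nanopore, 1 of 9, became 3 of 8 with Illumina TPM by union, mean or canonical length, 0 among genes that overlap no other gene (where 1 member, SMAD7, is left) and 0 after subtracting the Nanopore counts of genes that share exonic bases, an alternative chosen after seeing the data. The number called higher by Illumina, 5, became 0, 1 and 0 with the 3 TPM scales and 0 among genes without overlap. For the 65 pathway genes, the number higher by Nanopore, 5, became 14, 10 and 14 with TPM and 2 of 15 tested without overlap. The number higher by Illumina, 18, became 4, 6 and 3 with TPM and 7 without overlap. No share over all tested genes was computed for the setting without overlap, so those counts stand without a background. The members' median of -0.85 became -0.97 with a minimum mean of 10 CPM, -0.72 with median ratio scaling, 0.21, -0.065 and 0.39 with TPM by union, mean and canonical length, and -1.10 after the subtraction. Over all tested genes the median went from -0.42 to 0.40, 0.065 and 0.49 with TPM by the same 3 lengths. The subtraction left Illumina counts as deposited, so it could only lower ratios. Shared reads counted for neither gene would be missing from the deposited counts, and that case was not worked out. Log2 ratios that changed sign with TPM by union, mean and canonical length were 0.65, 0.79 and 1.02 for TGFB2, 0.22, 0.30 and 0.43 for TGFBR2, 2.69, 1.28 and 3.29 for SMAD2, and 2.06, 1.10 and 1.74 for SMAD4. SMAD3 changed sign by union (0.20) and canonical length (0.36), and TGFBR1 (0.018) and SMAD7 (0.24) by canonical length only. TGFB1 changed sign with the subtraction only (-0.050). TMM and median ratio scaling raised log2 ratios by 0.088 and 0.13 before the pseudocount (less for rare genes after it), which ended the SMAD2 call and no other member's. Pseudocounts of 0.1 and 5 CPM and dropping the filter changed no call or sign of a member. Depth limits TGFB2, TGFBR1, TGFBR3 and SMAD7, which rest on 1 to 3 Nanopore counts. No paired analysis was possible because each platform has 1 library.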
